A study of Mus musculus with 58 samples.

Results

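Insulin-like growth factor 1 (Igf1), its receptor Igf1r, the IGF2 and mannose 6-phosphate receptor Igf2r and the binding protein Igfbp4 were followed across 58 polyA RNA-seq libraries of microglia, the resident macrophages of the brain. The 4 genes were taken by symbol from 3 raw count tables. The age table listed 24940 genes and all 4 of them, the SgshKO antisense oligonucleotide (ASO) table listed 10589 genes and all 4, and the wild-type ASO table listed 10277 genes and 3 of them, so Igf2r was not analysed there. An ASO is a short synthetic strand that pairs with a target RNA and is used to lower the gene's product. The genes were chosen by measured values, from the 3-week counts of SgshKO against wild type, in which Igfbp4 was singled out for its fall, so every 3-week value of the 4 genes between genotypes is given as a description without a test.

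All mice were C57BL/6, and microglia were sorted from forebrain as CD11b+, CD45 low and CX3CR1+ cells. SgshKO mice lack the lysosomal sulfamidase that removes sulfate from heparan sulfate, the enzyme missing in Sanfilippo syndrome type A. The age series held wild-type and SgshKO microglia at 3 weeks (3 and 4 libraries), 4 months (2 and 2) and 8 months (4 and 7). Wild-type mice received 1 injection into the cerebral ventricle of PBS, of the ASO labelled ntc, which served as control, or of an ASO against Mitf, Tfeb or Tfe3, with 4 libraries each. SgshKO mice received the ntc ASO or ASOs against Mitf and Tfe3 together, with 8 libraries each in 2 sets labelled grp 1 and grp 2. Both of these groups are thus Sgsh knockout. Microglia were collected 14 days after injection. The knockout allele, the sex of the mice, the age of the injected mice and the number of mice behind a library were not given in the sources used here, so p-values measure the spread between libraries.

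Igf1 is a secreted growth factor that binds the tyrosine kinase Igf1r, which signals through insulin receptor substrates, PI3 kinase, Akt and Foxo transcription factors. Igfbp4 is a secreted protein that binds IGFs and holds them away from the receptor. Igf2r has no kinase: it clears IGF2 from the cell surface, and inside the cell it carries mannose 6-phosphate tagged hydrolases from the Golgi to the lysosome, a route that meets the lysosomal biology of SgshKO cells. Macrophages and microglia are known sources of Igf1 in the brain.

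In the count table, on mm10, Igf1 (NM_010512) lies on chromosome 10 at 87859052 to 87937047, Igf1r (NM_010513) on chromosome 7 at 67952257 to 68233667, Igf2r (NM_010515) on chromosome 17 at 12682406 to 12769706 on the minus strand, and Igfbp4 (NM_010517) on chromosome 11 at 99041244 to 99052655. Mitf, Tfeb and Tfe3, the transcription factors that the ASOs target, are known to bind the E-box CACGTG and its relative CATGTG, often flanked as TCACGTGA, in promoters of lysosomal genes. The promoters of Igf2r, the lysosomal sorting receptor, and of Igfbp4, whose level moved with these ASOs, are therefore shown as the 250 bases before the annotated start (RefSeq, GRCm38.p6, each read 5′ to 3′ on the gene's strand), with CACGTG and CATGTG on either strand in capitals.
Igf2r, chr17:12769707-12769956, minus strand: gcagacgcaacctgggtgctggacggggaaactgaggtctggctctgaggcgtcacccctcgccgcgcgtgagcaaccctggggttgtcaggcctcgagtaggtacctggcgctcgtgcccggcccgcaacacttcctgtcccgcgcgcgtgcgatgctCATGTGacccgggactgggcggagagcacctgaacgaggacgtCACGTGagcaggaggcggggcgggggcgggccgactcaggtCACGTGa
Igfbp4, chr11:99040994-99041243, plus strand: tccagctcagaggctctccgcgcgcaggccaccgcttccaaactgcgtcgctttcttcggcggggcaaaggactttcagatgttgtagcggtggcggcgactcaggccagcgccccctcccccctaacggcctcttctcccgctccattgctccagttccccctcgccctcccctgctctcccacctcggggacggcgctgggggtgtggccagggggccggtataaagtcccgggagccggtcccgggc
The Igf2r promoter held CACGTG 48 and 7 bases before the start, both times within TCACGTGA, and CATGTG 91 bases before the start, within TCATGTGA. The promoter windows of Igfbp4 and Igf1r, searched over 250 bases before to 50 bases after the start, held neither motif on either strand. The Igf1 window of that table, chr10:87860861-87861160, also held neither, but it lies around another start inside the transcript named above, and the window at that transcript's own start was not searched. Of 32851 mouse windows of that length, 7.15% held CACGTG, 0.594% held it at least 2 times, and 14.2% held CATGTG on either strand. The longer TCACGTGA, which contains the first motif, was in 0.974% of windows. The longer TCATGTGA, which contains the second, was in 0.986% on either strand. These matches describe letters in a window and not binding.

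Total counts per library spanned 8191508 to 27106584 (age series), 14372015 to 30378870 (wild-type ASO series) and 12517838 to 30431437 (SgshKO ASO series). Levels are given as CPM, the counts of a gene per 1000000 counts in tested genes, scaled by TMM factors. Microglial marker transcripts were high in all libraries, at a summed 34457 CPM or more. In such bulk samples fewer cells of a type and less RNA per cell cannot be told apart. SgshKO libraries at 4 and 8 months also carried monocyte and neutrophil transcripts, at 484 to 16228 CPM summed over 12 genes against 10.5 to 14.9 CPM in wild type, with the highest value in SgshKO 4-month replicate 2. Transcripts of choroid plexus epithelium, a list of 13 genes added after the data were seen, summed to 1729 to 8832 CPM at 4 months and to 55.8 to 874 CPM at the other ages. All 7 libraries at 3 weeks had more Xist than Ddx3y and all 4 wild-type libraries at 8 months had more Ddx3y, so age in wild type and the sex-linked transcripts cannot be told apart between 3 weeks and 8 months. Of the SgshKO libraries at 8 months, 4 had more Ddx3y and 3 had more Xist. The genotypes were thus not balanced for these transcripts at 8 months. Sgsh transcript was still present in SgshKO, at 26.6 ± 4.75 CPM (SD, n = 7) at 8 months against 44.4 ± 12.3 CPM (SD, n = 4). Each ASO lowered its own target in wild type: Mitf from 43.7 to 1.58 CPM, Tfeb from 54.9 to 5.80 CPM and Tfe3 from 198 to 38.1 CPM on average.

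The first comparison asked how the 4 genes differed between SgshKO and wild-type microglia at each age. Igf1 was far higher in SgshKO at 4 and 8 months, Igfbp4 was lower at 8 months, Igf2r was higher at 4 and 8 months at a low level, and Igf1r differed least of the 4. In the edgeR quasi-likelihood fit, 3 of the 4 members passed an adjusted p of 0.05 at 4 months, where 19.5% of all 14309 tested genes did, and 3 of 4 passed at 8 months, where 40.5% of all genes did.

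**Figure D1:**
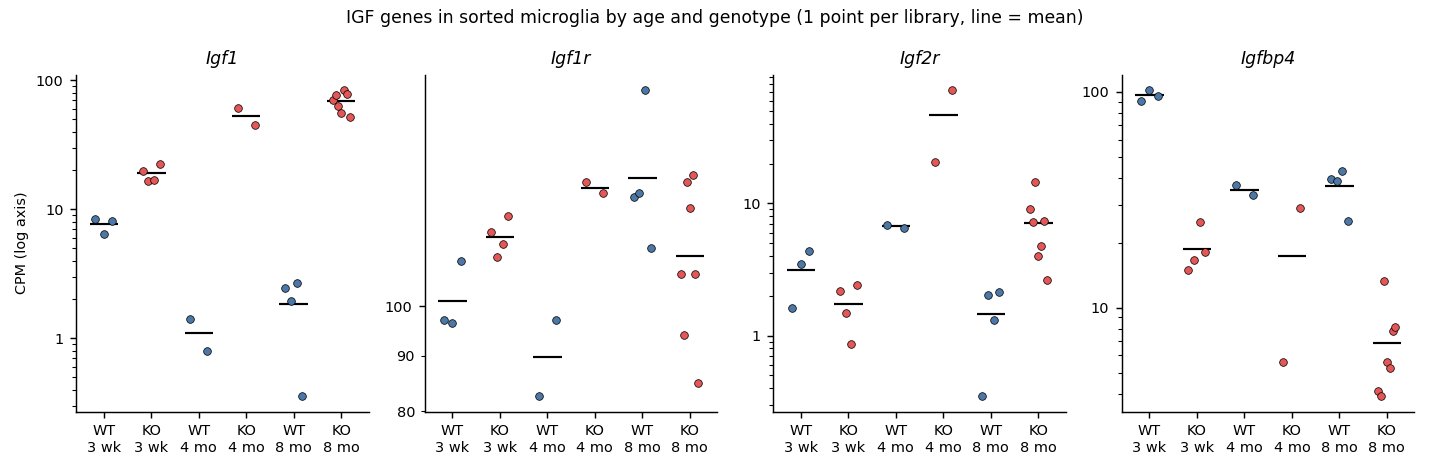
CPM (log axis) of Igf1, Igf1r, Igf2r and Igfbp4 in the 22 libraries of the age series, by genotype (WT blue, KO = SgshKO red) and age, with 1 point per library and a line at the group mean. Igf1 was at 51.8 CPM or more in all 8-month SgshKO libraries and at 2.69 CPM or less in all 8-month wild-type libraries. Igfbp4 in SgshKO at 4 months split into 5.62 and 28.9 CPM.

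Igf1, the ligand, was at 8.42, 6.44 and 8.15 CPM in the 3-week wild-type libraries and at 19.9, 16.5, 16.9 and 22.4 CPM in 3-week SgshKO. At 4 months it was at 1.42 and 0.789 CPM in wild type, from 12 and 11 counts, and at 61.1 and 45.1 CPM in SgshKO. At 8 months wild-type libraries held 2.43, 1.94, 2.69 and 0.354 CPM, the last from 4 counts, and SgshKO libraries ranged from 51.8 to 84.2 CPM with a median of 70.7. The genotypes did not overlap at any age. The log2 difference was 1.30 at 3 weeks, 5.66 ± 0.43 (SE, n = 2 and 2, edgeR adjusted p = 1.25e-09) at 4 months and 5.13 ± 0.26 (SE, n = 4 and 7, edgeR adjusted p = 7.11e-14) at 8 months, a 35.1-fold higher level.

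The age course of Igf1 ran in opposite directions. In wild type the 3-week mean was 7.67 ± 1.07 CPM (SD, n = 3), and by 8 months it had fallen to 1.85 ± 1.05 CPM (SD, n = 4), with a log2 change of -1.97 ± 0.28 (SE, edgeR adjusted p = 5.9e-05). In SgshKO the 3-week mean was 18.9 ± 2.75 CPM (SD, n = 4), and by 8 months it had risen to 68.7 ± 12.1 CPM (SD, n = 7), with a log2 change of 1.86 ± 0.20 (SE, edgeR adjusted p = 1.34e-07). Neither genotype's 3-week and 8-month libraries overlapped. Both tests use the 3-week libraries, whose counts chose the genes through Igfbp4. The difference between these age changes was not tested, since it contains the 3-week comparison that chose the genes. Of all genes, 7.65% passed between 8 months and 3 weeks in wild type and 30.6% in SgshKO. Within 4 to 8 months Igf1 passed in neither genotype: the log2 change was 0.90 (95% interval -0.08 to 1.89, edgeR adjusted p = 0.312) in wild type and 0.38 (-0.12 to 0.87, edgeR adjusted p = 0.282) in SgshKO.

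Border macrophages of the meninges and vessels are other macrophages that the sort could admit. Their 10 listed markers summed to 56.1 to 76.5 CPM in wild type and 84.1 to 110 CPM in SgshKO at 3 weeks, to 10.3 to 11.2 CPM and 72.4 to 127 CPM at 4 months, and to 16.8 to 32.8 CPM and 65.5 to 109 CPM at 8 months. The sums were thus higher in SgshKO at each age without overlap, as Igf1 was. In wild type they were lower at 4 and 8 months than at 3 weeks, as Igf1 was. In SgshKO, unlike Igf1, they did not rise from 3 weeks to 8 months. At 8 months their genotype gap was smaller than that of Igf1. Of the 10, 8 had counts in wild type and 9 in SgshKO at 8 months, and Cd209f was at 0 in all 22 libraries. The part of these cells in the Igf1 level was not tested.

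Igf1r, the signalling receptor, had the smallest genotype differences of the 4 genes at 4 and 8 months. At 8 months it was at 126, 127, 158 and 113 CPM in wild type and at 85.0 to 132 CPM (median 107) in SgshKO, and the groups overlapped. The log2 difference was -0.24 (95% interval -0.45 to -0.03, edgeR adjusted p = 0.0688). On the deposited TPM scale the difference passed, at -0.36 on log2(TPM + 1) (limma adjusted p = 0.00905). It also passed in edgeR without wild-type replicate 4 (-0.33), SgshKO replicate 3 (-0.29) or SgshKO replicate 5 (-0.29). At 4 months wild type held 82.6 and 97.1 CPM and SgshKO 130 and 127 CPM, a log2 difference of 0.51 ± 0.17 (SE, edgeR adjusted p = 0.0333). This call was lost when any of the 4 libraries was left out (edgeR adjusted p of 0.0579 to 0.248). At 3 weeks Igf1r was at 97.0, 96.4 and 110 CPM in wild type and at 117, 111, 114 and 121 CPM in SgshKO. Between 4 and 8 months Igf1r rose in wild type by a log2 of 0.54 ± 0.15 (SE, n = 2 and 4, edgeR adjusted p = 0.0301), a call lost without either 4-month library or without 8-month replicate 3 (edgeR adjusted p = 0.367, 0.0957 and 0.0877). In SgshKO the change was -0.21 (95% interval -0.48 to 0.07, edgeR adjusted p = 0.284).

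Igf2r, the lysosomal sorting and IGF2 clearance receptor, was low in wild type. It was at 1.61, 3.49 and 4.36 CPM at 3 weeks, 6.86 and 6.53 CPM at 4 months, and 0.347, 2.04, 1.32 and 2.12 CPM at 8 months. In SgshKO it was at 2.18, 1.47, 0.871 and 2.41 CPM at 3 weeks, 20.4 and 72.3 CPM at 4 months, and 2.62 to 14.4 CPM (median 7.21) at 8 months. The genotypes overlapped at 3 weeks and were apart at 4 and 8 months. At 8 months the log2 difference was 2.29 ± 0.47 (SE, n = 4 and 7, edgeR adjusted p = 0.000367), and at 4 months it was 2.80 ± 0.67 (SE, n = 2 and 2, edgeR adjusted p = 0.00402). The 4-month call rested on few libraries: without SgshKO replicate 2 the log2 difference was 1.56 (edgeR adjusted p = 0.196), and without wild-type replicate 2 it was 2.78 (edgeR adjusted p = 0.0576).

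Igf2r moved with choroid plexus transcripts across libraries. Over the 22 age libraries its log2 CPM had a Pearson r of 0.81 with the mean of the 13 choroid plexus genes, beside 0.97 for Igf2 and 0.96 for the binding protein Igfbp2, which are known choroid plexus products and were named after their values were seen, and 0.145 for Igf1. These are descriptions of libraries that also differ in age and genotype. The choroid plexus sum was 81.6 to 223 CPM in wild type and 174 to 553 CPM in SgshKO at 8 months. With the choroid plexus mean as a covariate, an alternative chosen after seeing the data, the Igf2r log2 difference at 8 months was 2.03 (edgeR adjusted p = 0.00219) and at 4 months 2.30 (edgeR adjusted p = 0.0331). At 4 months the choroid plexus sum was 2323 and 1729 CPM in wild type and 3178 and 8832 CPM in SgshKO. The genotypes did not overlap there, so the covariate cannot separate genotype from choroid plexus signal at 4 months. The 8-month SgshKO library with the most Igf2r, replicate 3 at 14.4 CPM, had the least choroid plexus signal of its group, at 174 CPM, and the most monocyte and neutrophil transcripts, at 6287 CPM. Without replicates 1 and 3, which had the highest monocyte and neutrophil sums, the difference was 1.84 (edgeR adjusted p = 0.00231). The SgshKO libraries kept still had higher sums than every 8-month wild-type library, so this fit cannot separate these transcripts from genotype. The part of monocytes and neutrophils in Igf2r was not tested.

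**Figure D2:**
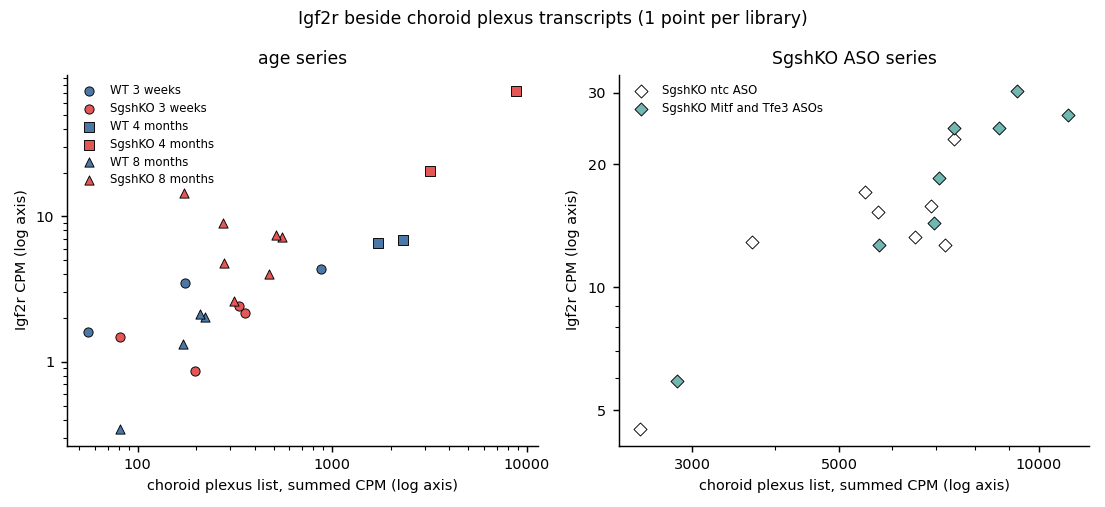
Igf2r CPM against the summed CPM of 13 choroid plexus transcripts, both on log axes, with 1 point per library, for the age series (left) and the SgshKO ASO series (right). The 8-month SgshKO libraries lay between 2.62 and 14.4 CPM of Igf2r at choroid plexus sums of 174 to 553 CPM, and the 4-month SgshKO libraries lay at 20.4 and 72.3 CPM of Igf2r at sums of 3178 and 8832 CPM.

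Igf2r fell between 4 and 8 months in both genotypes, by 2.19 on the log2 scale in wild type (edgeR adjusted p = 0.0276, with 5.77% of all genes passing) and by 2.70 in SgshKO (edgeR adjusted p = 0.000242, with 19.8% of all genes passing). With the choroid plexus covariate these changes were -1.22 (edgeR adjusted p = 0.658) and -1.49 (edgeR adjusted p = 0.543). Every 4-month library had a higher choroid plexus sum than every 8-month library. The covariate therefore cannot separate age from choroid plexus signal here, and few of all genes passed with it. The wild-type call was lost without either 4-month library or without 8-month replicate 1 or 3 (edgeR adjusted p = 0.16, 0.156, 0.0582 and 0.0645). In SgshKO the 4-month to 8-month log2 change was -1.47 without replicate 2 of the 4-month group, with edgeR adjusted p = 0.144. Between 3 weeks and 8 months Igf2r rose in SgshKO by a log2 of 2.02 ± 0.46 (SE, edgeR adjusted p = 0.00163). In wild type the same change was -1.12 (95% interval -2.25 to 0.01, edgeR adjusted p = 0.243). Both tests from 3 weeks use the libraries whose counts chose the genes through Igfbp4.

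Igfbp4, the binding protein, was the most abundant of the 4 genes per length in wild type and the one chosen for its fall. At 3 weeks it was at 90.9, 102 and 95.8 CPM in wild type and at 14.9, 16.6, 24.9 and 18 CPM in SgshKO, a log2 difference of -2.38. Among the 532 genes called lower at 3 weeks, 11 had a larger fitted fall, none of which averaged above 12.4 CPM in wild type. At 8 months, in libraries that the choice did not use, Igfbp4 was at 39.5, 38.7, 43.0 and 25.2 CPM in wild type and at 3.88 to 13.3 CPM (median 5.58) in SgshKO. The groups did not overlap, and the log2 difference was -2.40 ± 0.29 (SE, n = 4 and 7, edgeR adjusted p = 3.27e-07), a 5.29-fold lower level.

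At 4 months Igfbp4 did not pass: it was at 37.0 and 33.4 CPM in wild type and at 5.62 and 28.9 CPM in SgshKO, a log2 difference of -0.99 (95% interval -1.98 to -0.01, edgeR adjusted p = 0.16). On the deposited TPM scale it passed, at -1.41 on log2(TPM + 1) (limma adjusted p = 0.0322). The library at 28.9 CPM, replicate 2, also had the highest monocyte and neutrophil sum, 16228 CPM against 3340 CPM in replicate 1. Without it the log2 difference was -2.69 (edgeR adjusted p = 0.00263), and without replicate 1 it was -0.32 (edgeR adjusted p = 0.678). At 8 months the SgshKO library with the highest Igfbp4, replicate 3 at 13.3 CPM, likewise had the highest monocyte and neutrophil sum, while replicate 1, with the next highest sum of 3119 CPM, had 4.12 CPM of Igfbp4. The part of these cells in Igfbp4 was not tested. The 8-month difference was -2.59 without replicates 1 and 3 (edgeR adjusted p = 1.53e-07). The SgshKO libraries kept there still had higher monocyte and neutrophil sums than every 8-month wild-type library. Among the 8 libraries with more Ddx3y than Xist the difference was -2.97 (edgeR adjusted p = 8.22e-08).

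Igfbp4 was at a lower level at 8 months than at 3 weeks in both genotypes, with log2 differences of -1.39 in wild type and -1.41 in SgshKO. These are descriptions, because they use the 3-week Igfbp4 values that chose the genes. Between 4 and 8 months wild type showed a log2 change of 0.06 (95% interval -0.76 to 0.89, edgeR adjusted p = 0.966). SgshKO showed -1.35 ± 0.38 (SE, edgeR adjusted p = 0.0145), but 0.34 (edgeR adjusted p = 0.725) without 4-month replicate 2. The call was also lost on log2(TPM + 1) (limma adjusted p = 0.0849) and with only the 2 groups fitted (edgeR adjusted p = 0.0764). With the choroid plexus covariate, which cannot be separated from age between 4 and 8 months, the change was -1.46 and did not pass (edgeR adjusted p = 0.377).

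Whether the genotype difference itself changed from 4 to 8 months was tested as an interaction, which 0.391% of all genes passed in edgeR. None of the 4 members passed. The interaction was -0.53 for Igf1 (edgeR adjusted p = 0.768), -0.75 for Igf1r (edgeR adjusted p = 0.107, and 0.0224 in DESeq2), -0.50 for Igf2r (edgeR adjusted p = 0.873) and -1.41 for Igfbp4 (edgeR adjusted p = 0.323). With 2 libraries per group at 4 months, intervals were wide, from -2.13 to 1.13 for Igf2r and from -2.57 to -0.25 for Igfbp4.

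**Figure D3:**
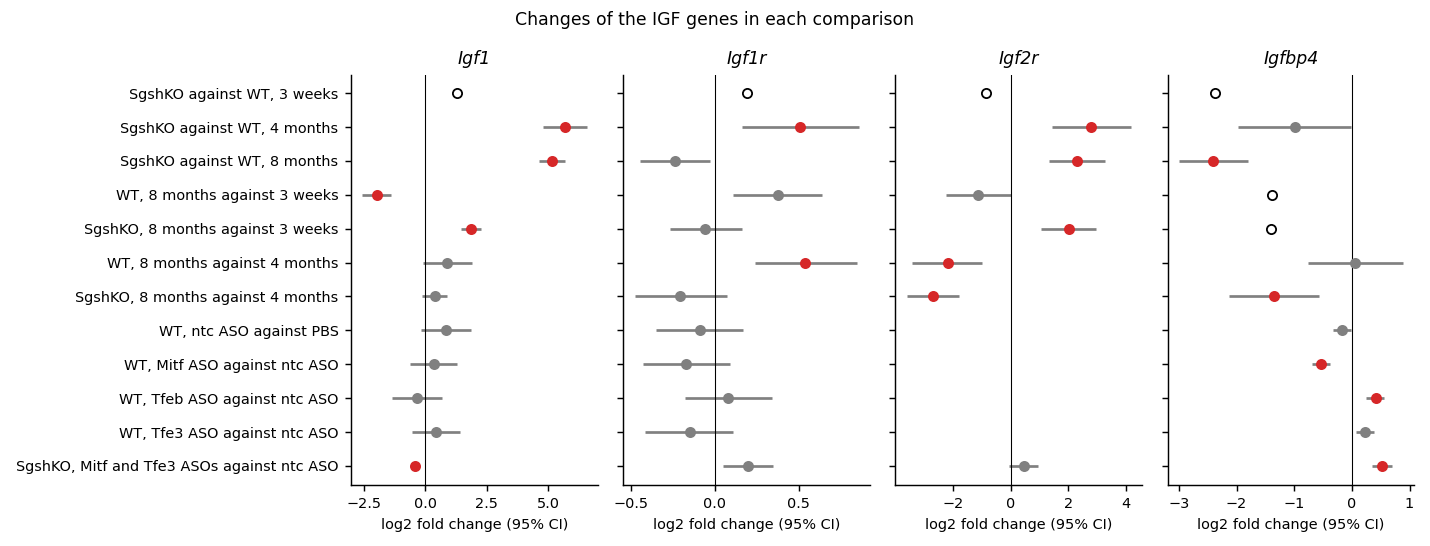
Log2 fold changes of the 4 genes in each comparison (first group against second), with 95% confidence intervals from the edgeR fit. Red points passed an adjusted p of 0.05, grey points did not, and open points without an interval are descriptions from contrasts that the choice of genes used. Igf1 stood at 5.66 and 5.13 in SgshKO at 4 and 8 months, and Igfbp4 at -0.54 under the Mitf ASO in wild type and at 0.52 under the Mitf and Tfe3 ASOs in SgshKO.

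On the deposited TPM scale, which is per transcript length, the order of the 4 genes differed between genotypes. In 8-month wild type Igfbp4 led at 27.4 ± 5.61 TPM, followed by Igf1r at 17.1 ± 2.42 TPM, Igf1 at 0.390 ± 0.231 TPM and Igf2r at 0.258 ± 0.146 TPM (SD, n = 4). Igf1 and Igf2r did not differ beyond their spread there. In 8-month SgshKO Igf1 at 13.7 ± 2.69 TPM and Igf1r at 13.2 ± 2.15 TPM were level within their spread, Igfbp4 followed at 4.64 ± 2.17 TPM and Igf2r at 1.13 ± 0.622 TPM (SD, n = 7). At 3 weeks Igfbp4 was at 71.0 ± 3.54 TPM in wild type (SD, n = 3) and at 13.1 ± 2.89 TPM in SgshKO (SD, n = 4), where Igf1r was at 14.3 ± 0.802 TPM.

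The rest of the IGF family was sparse in these cells. Of 22 ligand, receptor, binding protein and protease genes on the lists, all were in the age table and 10 passed the filter on low counts: Igf1, Igf2, Igf1r, Igf2r, Insr, Igfbp2, Igfbp4, Igfbp5, Igfbp6 and Igfbp7. Insr, the insulin receptor, fell at 8 months by 0.28 on the log2 scale (edgeR adjusted p = 0.0399). At 4 months it was at -0.07 (edgeR adjusted p = 0.83). Igf2 and Igfbp2 passed in no SgshKO against wild-type comparison, with log2 differences at 8 months of 0.64 (edgeR adjusted p = 0.341) and 1.34 (edgeR adjusted p = 0.0822). They fell between 4 and 8 months in both genotypes, with log2 changes of -3.20 and -3.84 in wild type (edgeR adjusted p = 0.00333 and 0.00223) and of -3.82 and -3.75 in SgshKO (edgeR adjusted p = 3.39e-05 and 0.000107), as the choroid plexus sum dropped.

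Igf2bp2 and Igf2bp3, RNA-binding proteins named for their binding of Igf2 mRNA, moved apart at 8 months. Igf2bp2 was higher in SgshKO by a log2 of 1.11 ± 0.18 (SE, edgeR adjusted p = 2.11e-05) and Igf2bp3 lower by -1.44 ± 0.45 (SE, edgeR adjusted p = 0.0134). At 4 months their log2 differences were 0.54 (edgeR adjusted p = 0.205) and -0.34 (edgeR adjusted p = 0.834), and at 3 weeks 0.40 and 0.47 (edgeR adjusted p = 0.299 and 0.711).

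Genes of the sorting route that Igf2r serves were called higher in SgshKO at each age and none was called lower. Of 16 genes for mannose 6-phosphate tagging, sorting and retromer recycling, all tested, 6 were higher and 0 lower at 3 weeks, 5 were higher and 0 lower at 4 months, and 9 were higher and 0 lower at 8 months. This list, like the other gene lists, was chosen with earlier results of these data known. Of all genes, 9.03% were called in either direction at 3 weeks, which made 1292 genes, 532 of them lower. At 4 months 10.3% were called higher and 9.26% lower, and at 8 months 21.6% higher and 18.9% lower. The list's median log2 difference was 0.24, 0.21 and 0.22 at 3 weeks, 4 months and 8 months, against -0.02, 0.02 and 0.02 over all genes. Without wild-type replicate 2 or without SgshKO replicate 2, 3 genes passed at 4 months.

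Plin3, also known as TIP47 and described as a carrier of mannose 6-phosphate receptors and a lipid droplet coat, rose by 1.18, 2.04 and 1.99 on the log2 scale at 3 weeks, 4 months and 8 months (edgeR adjusted p = 7.21e-07, 1.13e-08 and 7.16e-13). Gga2, an adaptor that sorts the receptors at the Golgi, rose by 1.16, 1.55 and 1.33 (edgeR adjusted p = 8.13e-08, 5.25e-08 and 3.05e-11). Gnptg and Gnptab encode subunits of the enzyme that starts the mannose 6-phosphate tag. Gnptg rose by 0.60, 0.57 and 0.95 (edgeR adjusted p = 0.00207, 0.0168 and 8.69e-08). Gnptab was at 0.25 at 3 weeks (edgeR adjusted p = 0.118) and rose by 0.57 and 0.81 at 4 and 8 months (edgeR adjusted p = 0.00208 and 1.32e-08).

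Genes downstream of Igf1r moved both ways. Of 42 adaptor and PI3K-Akt-Foxo genes, 40 were tested, and at 8 months 14 were lower and 6 higher, where 18.9% of all genes were lower and 21.6% higher. The list median was -0.16 against 0.02 over all genes. At 4 months 7 were lower and 2 higher, where 9.26% of all genes were lower and 10.3% higher, so the 9 of 40 that passed were near the 19.5% of all genes. At 3 weeks 1 of 40 passed, beside 9.03% of all genes. At 4 months 5 passed without wild-type replicate 1, 4 without wild-type replicate 2 and 5 without SgshKO replicate 2. Among the genes that fell at 8 months were Socs3, a feedback inhibitor of cytokine and insulin signalling, at -1.70 ± 0.30 (SE, edgeR adjusted p = 7.75e-05), the Akt phosphatase Phlpp2 at -1.63 ± 0.12 (SE, edgeR adjusted p = 3.86e-11) and the PI3 kinase regulatory subunit Pik3r1 at -1.07 ± 0.10 (SE, edgeR adjusted p = 4.05e-09). At 4 months Phlpp2 fell by 1.30 and Pik3r1 by 0.71 (edgeR adjusted p = 4.05e-05 and 0.00297), and Socs3 was at -1.37 (edgeR adjusted p = 0.0619).

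**Figure D4:**
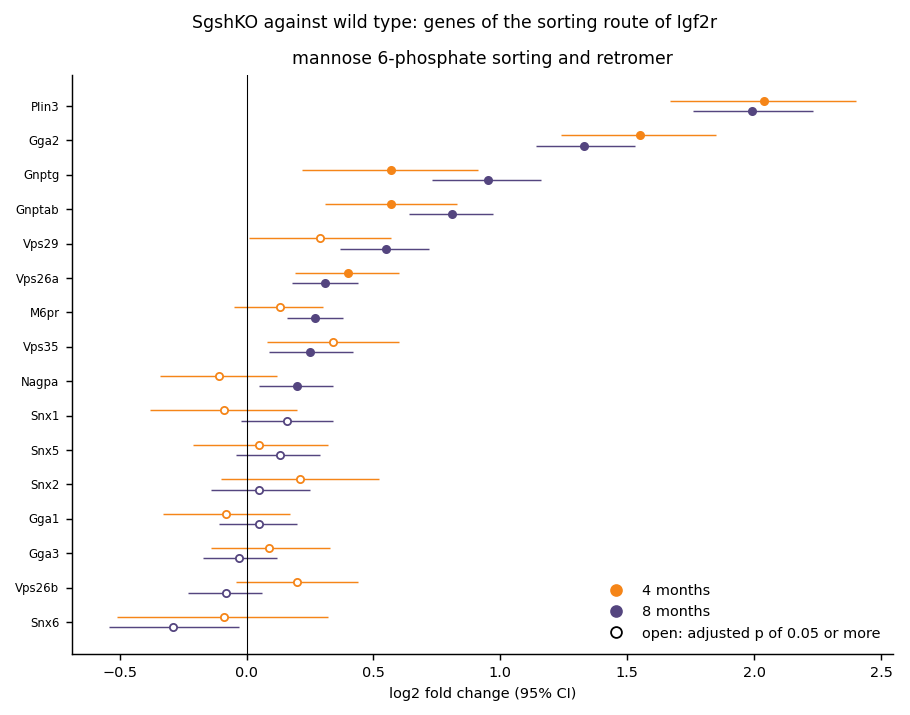
Log2 fold changes with 95% confidence intervals of SgshKO against wild type at 4 months (orange) and 8 months (purple) for the 16 genes of the mannose 6-phosphate sorting and retromer list. Filled points passed an adjusted p of 0.05. Plin3 stood at 2.04 and 1.99 and Gga2 at 1.55 and 1.33.

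Each of the 4 genes was set beside the genes most like it across the 22 age libraries, by Pearson r of log2 CPM. Closest to Igf1 were Cpd (r = 0.98), a carboxypeptidase, the chloride channel family member Clic4 (0.97) and the chloride channel Ttyh2 (0.96). Igf2r was closest to Dock5 (0.95), Iqgap2 (0.93) and Rab11fip1 (0.92), and Igfbp4 to Sema4g (0.94), Map4k2 (0.94) and Tiam1 (0.91). For Igf1r the highest values were lower, with Srd5a1 at 0.72, Nedd4l at 0.66 and Zfp763 at 0.63. Between members r was -0.73 for Igf1 and Igfbp4 and 0.45 for Igf1 and Igf2r, and -0.01 for Igf1r and Igf2r. All of these r values, for partners and members alike, describe libraries that also differ in age and genotype. Differences between those groups therefore enter each r, and r within a group was not tested. The youngest libraries, whose counts chose the genes through Igfbp4, are included.

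The second comparison asked whether lowering Mitf, Tfeb or Tfe3 in wild-type mice changed the genes. Of the 3 genes listed there, Igfbp4 changed: it fell under the Mitf ASO and rose under the Tfeb ASO. Igfbp4 was at 42.6, 48.7, 43.9 and 48.7 CPM with PBS and at 40.7, 38.5, 42.9 and 41.1 CPM with ntc. It was at 24.2, 30.6, 28.9 and 29.1 CPM with the Mitf ASO, below every other library of the series. With the Tfeb ASO it was at 51.7, 60.7, 53.1 and 51.1 CPM, above every PBS, ntc and Tfe3 library, and with the Tfe3 ASO at 49.5, 44.6, 49.6 and 47.1 CPM.

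Against ntc, which is shared by all 3 comparisons, the log2 change of Igfbp4 was -0.54 ± 0.07 for Mitf (SE, n = 4 and 4, edgeR adjusted p = 0.000151, with 11.0% of 10277 genes passing). For Tfeb it was 0.41 ± 0.07 (SE, edgeR adjusted p = 0.0104, with 0.778% passing) and for Tfe3 0.23 ± 0.07 (SE, edgeR adjusted p = 0.119, with 2.16% passing). On the deposited batch-corrected signal the Tfe3 change was 0.39 and passed (limma adjusted p = 0.0356). The Tfeb call was lost without ntc replicate 2, Tfeb replicate 1 or Tfeb replicate 2 (edgeR adjusted p = 0.0595, 0.0539 and 0.0959) and without the replicate number as a block (0.0536). Compared directly, Igfbp4 was lower with the Mitf ASO than with the Tfeb ASO by a log2 of -0.95 ± 0.07 (SE, edgeR adjusted p = 7.24e-07, with 3.53% of genes passing) and than with the Tfe3 ASO by -0.76 ± 0.07 (SE, edgeR adjusted p = 3.85e-06, with 3.76% passing). Between ntc and PBS its log2 difference was -0.17 (95% interval -0.32 to -0.02, edgeR adjusted p = 1), in a comparison that 0 genes passed in edgeR (0%), 415 at an unadjusted p under 0.05, and 2 in DESeq2.

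**Figure D5:**
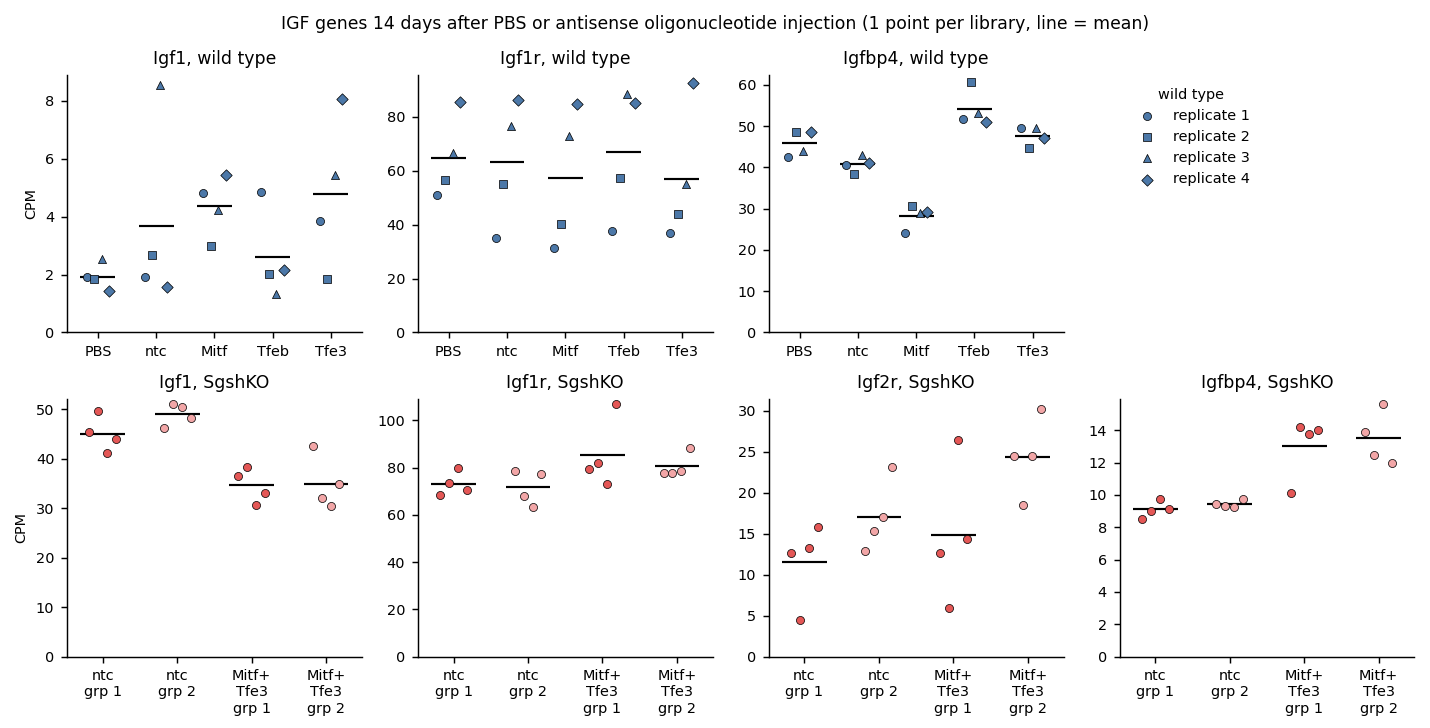
CPM of the IGF genes 14 days after injection, with 1 point per library and a line at the group mean, in wild type (top, symbols by replicate number) and SgshKO (bottom, by ASO and grp). Igfbp4 lay at 24.2 to 30.6 CPM under the Mitf ASO in wild type and at 38.5 CPM or more in the other wild-type groups, and in SgshKO at 8.49 to 9.77 CPM in ntc libraries and 10.1 to 15.6 CPM in those given the Mitf and Tfe3 ASOs.

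Igf1 was low in every injected wild-type group and did not pass. It was at 1.90, 1.84, 2.52 and 1.44 CPM with PBS and at 1.91, 2.66, 8.55 and 1.58 CPM with ntc, where replicate 3 stood apart. With the Mitf ASO it was at 4.80, 2.98, 4.23 and 5.44 CPM, with the Tfeb ASO at 4.84, 2.03, 1.34 and 2.17 CPM and with the Tfe3 ASO at 3.84, 1.85, 5.45 and 8.05 CPM. Under the Mitf ASO the log2 change against ntc was 0.35 (95% interval -0.61 to 1.31, edgeR adjusted p = 0.688) and 1.02 without ntc replicate 3 (edgeR adjusted p = 0.158). It was -0.33 for Tfeb and 0.43 for Tfe3 (edgeR adjusted p = 0.795 and 0.687), and 0.83 for ntc against PBS (edgeR adjusted p = 1).

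Igf1r followed the replicate number more than the ASO. Replicate 1 was the lowest of its group in 5 of 5 groups, at 31.3 to 50.9 CPM, and replicate 4 the highest in 4 of 5, at 84.8 to 92.7 CPM. In the titles each replicate number goes with the grp of the same number, and the labels do not say what either marks. The count table names the column of PBS replicate 4 with grp 3, where its title has grp 4. The log2 change against ntc was -0.17 for Mitf, 0.08 for Tfeb and -0.15 for Tfe3 (edgeR adjusted p = 0.406, 0.795 and 0.573).

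Among the list genes, the Mitf ASO raised 4 of 16 sorting and retromer genes and lowered 0: Gga2 by 0.56, Gnptg by 0.47, Plin3 by 0.36 and Vps29, a retromer subunit, by 0.24 (edgeR adjusted p = 0.000382, 0.000297, 0.047 and 0.00804). The list median was 0.07 against -0.01 for all genes. It raised 1 of 34 adaptor and PI3K-Akt-Foxo genes, the translation inhibitor Eif4ebp1 (0.36, edgeR adjusted p = 0.0247), and lowered 3, Phlpp2 (-0.37), Gab1 (-0.26) and Foxo3 (-0.16), with edgeR adjusted p = 0.0202, 0.0301 and 0.0475. These 4 of 34 were near the 11.0% of all genes that passed. Insr fell by 0.25 and Igf2bp2 rose by 0.57 (edgeR adjusted p = 0.0323 and 0.0279). With the Tfeb ASO 0 of 16 sorting genes passed in edgeR (2 at an unadjusted p under 0.05, 1 in DESeq2), and with the Tfe3 ASO 0 of 16 (5 unadjusted, 1 in DESeq2). Over all genes 0.778% passed with the Tfeb ASO and 2.16% with the Tfe3 ASO, so 0 of 16 was near those shares.

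The third comparison asked what the Mitf and Tfe3 ASOs together did in SgshKO microglia, where Mitf averaged 15.3 CPM against 72.4 CPM with ntc and Tfe3 80.4 CPM against 170 CPM. Igfbp4 rose and Igf1 fell, and 9.33% of 10589 genes passed. Igf1 ranged from 41.1 to 51.1 CPM (median 47.2) in ntc libraries and from 30.4 to 42.6 CPM (median 33.9) in combination libraries. The ranges overlapped through 1 combination library of grp 2 at 42.6 CPM and ntc replicate 3 of grp 1 at 41.1 CPM. The log2 change was -0.43 ± 0.07 (SE, n = 8 and 8, edgeR adjusted p = 0.000752), with -0.36 within grp 1 (edgeR adjusted p = 0.0698) and -0.50 within grp 2 (edgeR adjusted p = 0.0137). Of the 10 border macrophage markers 1 was listed in this table, at 116 to 183 CPM in ntc and 155 to 195 CPM in combination libraries, and its part in the Igf1 level was not tested.

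Igfbp4 was at 8.49, 9.03, 9.76 and 9.14 CPM in grp 1 and 9.46, 9.32, 9.28 and 9.77 CPM in grp 2 with ntc. With the combination it was at 10.1, 14.2, 13.8 and 14.0 CPM in grp 1 and at 13.9, 12.5, 15.6 and 12 CPM in grp 2. Every combination library was above every ntc library. The log2 change was 0.52 ± 0.08 (SE, n = 8 and 8, edgeR adjusted p = 0.000683), with 0.53 within grp 1 (edgeR adjusted p = 0.0628) and 0.51 within grp 2 (edgeR adjusted p = 0.0263). Monocyte and neutrophil transcripts, of which 8 of 12 were listed, summed to 4.32 to 49.7 CPM in grp 1 and to 83.0 to 632 CPM in grp 2. Igfbp4 rose with the combination in SgshKO and fell with the Mitf ASO in wild type, but the difference was not tested, since agents, genotype and table differ.

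Igf2r ranged from 4.51 to 23.1 CPM (median 14.3) in ntc libraries and from 5.90 to 30.2 CPM (median 21.5) in combination libraries, with overlap. The log2 change was 0.45 (95% interval -0.07 to 0.96, edgeR adjusted p = 0.273) and, with the choroid plexus covariate, 0.14 (edgeR adjusted p = 0.317). With a replicate block within grp it was 0.43 and passed (edgeR adjusted p = 0.0403). All 13 choroid plexus genes were listed in this table, at a sum of 2505 to 7448 CPM in ntc libraries and 2845 to 11065 CPM in combination libraries, and the r of Igf2r with their mean was 0.90 over 16 libraries. The ratio of Igf2r to Igf2 CPM lay at 0.104 to 0.136 in ntc libraries and at 0.114 to 0.146 under the combination. In SgshKO of the age series it lay at 0.225 to 1.19 at 3 weeks, 0.35 to 0.395 at 4 months and 0.287 to 2.63 at 8 months. In wild type of that series it lay at 0.187 to 1.05, 0.105 to 0.182 and 0.143 to 0.511 at the same ages. The ratio was not tested between the 2 series. Igf1r ranged from 63.3 to 80 CPM (median 72) in ntc libraries and from 73 to 107 CPM (median 79) in combination libraries, a log2 change of 0.20 (95% interval 0.05 to 0.35, edgeR adjusted p = 0.0857).

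Of the sorting and retromer genes, Gga2 fell by 0.32, Vps29 by 0.21 and Vps35, another retromer subunit, by 0.18 with the combination, and Gnptg rose by 0.22 (edgeR adjusted p = 9e-05, 0.0161, 0.0399 and 0.042), which made 4 of 16. Plin3 was at 0.00 (edgeR adjusted p = 0.992). Of 36 adaptor and PI3K-Akt-Foxo genes 0 passed in edgeR, 5 at an unadjusted p under 0.05 and 1 in DESeq2. Over all genes 9.33% passed in edgeR, beside these 4 of 16 and 0 of 36.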

How the data were processed

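Microglial polyA RNA was measured in 58 libraries. Raw read counts per gene were deposited by the authors for the age series, the wild-type ASO series and the SgshKO ASO series, and TPM values per transcript for the age series. Batch-corrected normalised signal was deposited by the authors for the 2 ASO series. The submitters' processing notes name STAR 2.5.3a, kallisto 0.44.0, HOMER 4.11, DESeq2 1.36.0 and R 4.2.3, with build mm10, without stating which step each served. Per the labels' protocols, libraries were strand-specific (dUTP) and single-end, made with either of 2 RNA kits and run on either of 2 sequencers, and which library had which was not given. How strand was used in counting is not given in the sources used here.

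Each count table was fitted on its own in edgeR 4.0.16 (R 4.3.3) with TMM factors, a filterByExpr minimum count of 10 and the quasi-likelihood F test, adjusted by Benjamini-Hochberg over all genes tested, with a threshold of 0.05. All groups of a table shared 1 estimate of the spread, with replicate number as a block in wild-type ASO libraries and grp as a covariate in SgshKO ASO libraries. The SE is the log2 change divided by the square root of F. Intervals of 95% are not adjusted. DESeq2 1.42.0 on the counts and limma 3.58.1 on log2(TPM + 1), log2(TPM + 0.1) and log2(signal + 1) were alternatives. Correlations used log2(CPM + 0.5). No test was made across tables.

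In counts simulated from the real means, 100 genes were changed by 2 and 100 by 1 on the log2 scale. The fit called 80 and 67% of these at 8 months, 68 and 45% at 4 months, 99 and 94% for the Mitf ASO, and 100 and 99% for the combination. Fewer genes were changed than passed in the data in each of these comparisons, so the shares need not hold there. Libraries of 1 group differed by more than sampling noise (chi-square per degree of freedom of at least 8.28). The 4 members and the 8 gene lists (89 genes), with 8 lists of cell markers, were chosen with earlier results of these data known. Genes named from a list were those with the largest log2 changes, at most 4 per list, among those passing at 8 months or in an ASO comparison, and 3 likeness partners per member. Some genes of the adaptor and PI3K list are counted but not reported here by name. Promoter letters came from RefSeq promoter windows, matched by symbol for all 4 members.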

Additional observations from a re-analysis of the deposited data

Results flagged for a closer look

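Igf1 changed with age in opposite directions in the genotypes, with log2 changes from 3 weeks to 8 months of -1.97 in wild type and 1.86 in SgshKO, and every 8-month library lay on its own side of the 3-week libraries. The difference between the 2 changes was not tested. Wild-type libraries at 8 months had more Ddx3y than Xist and those at 3 weeks the reverse. With that balance as a covariate the changes were -1.99 (edgeR adjusted p = 0.0026) and 1.84 (edgeR adjusted p = 2.35e-06). In wild type this fit cannot separate age from the balance, since no library of either age had the opposite balance.

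Of 35 groups of 4 to 10 libraries, 2 held a library far from the rest by Dixon's 95% limit, which chance passes in about 1 in 20 groups. Igf1 in wild-type ntc replicate 3 was at 8.55 CPM, against 1.58 to 2.66 CPM in the other 3 ntc libraries. Igf1r in the SgshKO combination library of grp 1, replicate 4, was at 107 CPM, against 73 to 88.3 CPM in the other 7.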

How the results depend on the processing

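The changes of Igf1 and Igf2r and the fall of Igfbp4 at 8 months, Igf1 at 4 months, Igf1 from 3 weeks to 8 months in each genotype, and Igfbp4 under the Mitf ASO kept direction and call under every alternative run. Of 816 values of the 4 genes under alternatives, 740 kept direction and side of the threshold, 41 lost and 19 gained a call and 16 changed sign. The cause of these shifts was not tested. Choroid plexus covariates, the 2 left-out 8-month libraries and the Ddx3y-only fit were chosen after seeing the data.

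With 1 library left out, log2 changes ranged, for SgshKO against wild type at 4 months, from 0.413 to 0.652 for Igf1r, 1.559 to 3.398 for Igf2r and -2.693 to -0.319 for Igfbp4, and from -0.333 to -0.136 for Igf1r at 8 months. From 4 to 8 months they ranged from 0.436 to 0.675 (Igf1r), -2.423 to -1.884 (Igf2r) and -0.023 to 0.208 (Igfbp4) in wild type, and from -3.289 to -1.473 (Igf2r) and -2.013 to 0.343 (Igfbp4) in SgshKO. The change in genotype effect ranged from -1.109 to 0.714 for Igf2r and -2.087 to 0.272 for Igfbp4. In wild-type ASO libraries Igf1 ranged from -0.009 to 1.025 (Mitf), -0.856 to 0.310 (Tfeb) and -0.003 to 1.133 (Tfe3), Igf1r from -0.003 to 0.145 (Tfeb) and -0.182 to 0.043 (ntc against PBS), and Igfbp4 from 0.338 to 0.445 (Tfeb). At 4 months Insr ranged from -0.186 to 0.016 and Igf2bp3 from -1.423 to 0.141, and at 3 weeks Socs3 from -0.207 to 0.460, with -0.053 the other negative value. Counts of called genes ranged from 1441 to 2708 at 4 months, 4 to 125 for the change in genotype effect, 199 to 800 and 707 to 3155 from 4 to 8 months in wild type and SgshKO, 664 to 1156 from 3 weeks to 8 months in wild type, 621 to 970 (Mitf), 24 to 63 (Tfeb), 79 to 140 (Tfe3), 118 to 458 (Mitf against Tfeb) and 218 to 303 (Mitf against Tfe3), and at 4 months from 3 to 5 for the sorting list and 4 to 12 for the adaptor and PI3K list.

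On TPM with pseudocounts of 1 and 0.1, and 1 without a filter, Igf1r was at 0.403, 0.430 and 0.403 (4 months), -0.363, -0.385 and -0.363 (8 months) and 0.506, 0.538 and 0.506 (wild type, 4 to 8 months), which lost the first and last calls and gained the second. Igf2r was at -0.799, -1.956 and -0.799 (wild type, 4 to 8 months) and, unfiltered, at 0.679 (SgshKO, 3 weeks to 8 months), with these calls lost. Igfbp4 was at -1.407 and -1.533 (4 months, filtered), gaining the call (limma adjusted p = 0.0322 and 0.0398), and at -0.948, -1.056 and -0.948 (SgshKO, 4 to 8 months), losing it (limma adjusted p = 0.0849, 0.0919 and 0.114), and the Igf1 change in genotype effect at 0.137 with and without a filter. Without the count filter Igf1r was at -0.245 (8 months), -0.767 (change in genotype effect) and 0.382 (wild type, 3 weeks to 8 months). In DESeq2 the last 2 were -0.771 and 0.378, and all of these gained a call. Fitting only the compared groups gave 0.554 for Igf1r (wild type) and -1.351 for Igfbp4 (SgshKO) from 4 to 8 months, both calls lost. With the choroid plexus covariate Igf1r was at 0.518 (4 months) and 0.528, Igf2r at -1.224 and Igfbp4 at -0.032 (wild type, 4 to 8 months), and Igf2r at -1.488 and Igfbp4 at -1.462 (SgshKO, 4 to 8 months). Each of these lost its call except Igfbp4 in wild type, which had none and changed sign. From 4 to 8 months this covariate cannot be separated from age, and at 4 months it cannot be separated from genotype. A call lost or kept there does not tell them apart. The Ddx3y and Xist covariate gave 0.498 for Igf1r (wild type, 4 to 8 months), a lost call, and Igf1r at 8 months was -0.285, a gained call, without SgshKO replicates 1 and 3. Among the 8-month libraries with more Ddx3y than Xist, the genotype difference was 5.189 for Igf1 and 2.096 for Igf2r (edgeR adjusted p = 2.23e-08 and 0.00393). It was -0.209 for Igf1r and -2.974 for Igfbp4 (edgeR adjusted p = 0.2 and 8.22e-08). On the batch-corrected signal Igf1r was at -0.111 (Tfeb) and Igfbp4 at 0.388 (Tfe3), the latter a gained call (limma adjusted p = 0.0356). Within grp 1 the combination gave -0.364 for Igf1 and 0.531 for Igfbp4, both calls lost.

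Counts of called genes for the change in genotype effect were 168 in DESeq2, 131 without the count filter, 22 with only the compared groups and 270 on unfiltered TPM. The choroid plexus covariate left 50 and 38 genes from 4 to 8 months in wild type and SgshKO, and 5 of the adaptor and PI3K list at 4 months. The Ddx3y and Xist covariate left 463 from 3 weeks to 8 months in wild type. Between ntc and PBS 2 were called in DESeq2 and 1 on the signal. For Tfeb there were 213 in DESeq2, 450 with only the compared groups and 145 on the signal, for Tfe3 403 and for Mitf against Tfeb 573 in DESeq2. For the combination there were 452 without a covariate, 192 within grp 1 and 430 within grp 2.

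Same-numbered libraries deviated together in the wild-type ASO series, where 38 of 40 pairs correlated above 0.1 and 20 of 20 libraries correlated best with their own number, as did 6 of 8 in grp 1 and 8 of 8 in grp 2 of the SgshKO ASO series. In the age series 0 of 6 did so at 3 weeks, 4 of 4 at 4 months and 1 of 8 at 8 months, and 1 pair in all was above 0.1. With 2 libraries per group at 4 months all or none could do so, and the r there was 0.0287. Not every pair passed 0.1, so the numbers may not pair animals. With a replicate block Igfbp4 was at -0.072 (wild type, 4 to 8 months), Igf1r at 0.372 (wild type, 3 weeks to 8 months) and Igf2r at 0.429 (combination), of which the last 2 passed (edgeR adjusted p = 0.0401 and 0.0403), and 21 genes passed for the change in genotype effect and 1406 from 4 to 8 months in SgshKO. Without the replicate block Igfbp4 was at 0.409 for Tfeb, and 211 (Mitf), 9 (Tfeb), 29 (Tfe3), 33 (Mitf against Tfeb) and 100 genes (Mitf against Tfe3) passed. Low counts limit Igf1 in wild type and Igf2r, from 4 counts upward per library.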
